A study of Mus musculus with 6 samples.

Results

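The muscle nicotinic acetylcholine receptor and the agrin-MuSK machinery that gathers it under the nerve were followed in the soft palate of mouse embryos, in embryos without the homeobox gene Dlx5 and in wild-type controls. The set was fixed by gene name and held 10 genes of the 49492 in the deposited count table: 5 receptor subunit genes (Chrna1, Chrnb1, Chrnd, Chrng and Chrne) and 5 genes of the clustering machinery (Agrn, Lrp4, Musk, Dok7 and Rapsn). All 10 had a row in the table. RNA of the posterior soft palate at E14.5 was sequenced in 3 libraries of genotype Dlx5-/- and 3 libraries of genotype wild type, called controls here. The labels give the genotype alone: they name no Cre driver, no strain and no other allele. They also do not say whether each library is a separate embryo or a pool, and the p-values below reflect only how these libraries vary, technical variation included.

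The acetylcholine receptor of skeletal muscle is a ring of subunits around a cation channel, built from alpha, beta and delta subunits together with a gamma subunit in fetal muscle or an epsilon subunit in adult muscle. Its subunit genes are switched on when myoblasts leave the cell cycle and fuse, under myogenic basic helix-loop-helix factors that bind E-boxes, and are later restricted to nuclei under the nerve terminal. Agrin from the motor nerve binds LRP4, which activates the receptor kinase MuSK, and DOK7 and rapsyn act inside the muscle fibre to gather receptors into clusters. Soft palate muscles form from myoblasts that migrate into a mesenchyme made by cranial neural crest cells, and the study asked how Dlx5 acts between these populations.

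The promoter windows of 4 subunit genes are shown because these genes stood at the ends of the data below. Among the subunits Chrna1 and Chrng had the largest estimated differences and Chrnb1 the smallest, while Chrne had no reads at all. Chrnd, which had no window, was close to Chrng, with log2 fold changes of 1.03 and 1.05. Each window runs from 250 bases before to 50 bases after the RefSeq gene start on GRCm38.p6, 5′ to 3′ on the strand of the gene. Capitals mark CANNTG, the E-box letters, and CCGGAA, the N-box letters known from synaptic promoters; both strands were searched and no match of one motif overlapped the other. The windows are chr2:73580289-73580588 (minus strand) for Chrna1, chr1:87205561-87205860 (plus strand) for Chrng, chr11:69795888-69796187 (minus strand) for Chrnb1 and chr11:70619145-70619444 (minus strand) for Chrne. The RefSeq start of Chrng lies inside the GENCODE gene span given below, whose longest model begins further upstream.
Chrna1: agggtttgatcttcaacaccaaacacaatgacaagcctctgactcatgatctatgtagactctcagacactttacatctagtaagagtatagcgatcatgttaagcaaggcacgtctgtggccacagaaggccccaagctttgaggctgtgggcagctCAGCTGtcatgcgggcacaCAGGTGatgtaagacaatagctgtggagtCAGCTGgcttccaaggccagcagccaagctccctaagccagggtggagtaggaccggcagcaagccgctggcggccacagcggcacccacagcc
Chrng: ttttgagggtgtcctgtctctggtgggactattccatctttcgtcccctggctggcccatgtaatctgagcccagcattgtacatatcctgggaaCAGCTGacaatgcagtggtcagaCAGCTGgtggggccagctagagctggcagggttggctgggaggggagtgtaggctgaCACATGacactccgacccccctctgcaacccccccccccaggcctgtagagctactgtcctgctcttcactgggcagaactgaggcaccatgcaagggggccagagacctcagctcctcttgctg
Chrnb1: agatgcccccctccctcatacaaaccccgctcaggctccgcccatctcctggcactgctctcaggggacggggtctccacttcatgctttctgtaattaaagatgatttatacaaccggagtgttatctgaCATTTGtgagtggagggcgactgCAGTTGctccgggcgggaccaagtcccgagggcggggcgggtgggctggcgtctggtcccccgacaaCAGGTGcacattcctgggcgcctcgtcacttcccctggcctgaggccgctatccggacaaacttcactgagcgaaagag
Chrne: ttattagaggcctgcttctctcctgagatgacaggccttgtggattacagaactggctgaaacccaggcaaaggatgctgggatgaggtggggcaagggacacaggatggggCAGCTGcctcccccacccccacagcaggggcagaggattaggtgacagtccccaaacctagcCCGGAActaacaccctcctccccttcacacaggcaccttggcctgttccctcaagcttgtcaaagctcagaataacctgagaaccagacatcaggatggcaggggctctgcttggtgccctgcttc

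The Chrna1 window held 3 matches to CANNTG, starting 92, 73 and 44 bases before the gene start, and 2 of them read CAGCTG. The Chrng window also held 3, with CAGCTG at 155 and 132 bases before the start. The Chrnb1 window held 3, none of them CAGCTG, and the Chrne window held 1 CAGCTG together with 1 CCGGAA, 76 bases before its start. Of 32544 promoter windows of this length, 17.6% held at least 3 matches to CANNTG, 1.91% held at least 2 of CAGCTG and 15% held at least 1 of CCGGAA. Among the other members with a window in the RefSeq table, Musk had 3 matches to CANNTG, 1 of them CAGCTG, while Agrn and Dok7, each with 2 windows, had at most 1 and no CAGCTG. Chrnd, Rapsn and Lrp4 had no window in the RefSeq set used here. These matches describe letters and say nothing of binding.

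The libraries held 8741020, 10541150 and 11492409 estimated counts in Dlx5-/- replicates 1 to 3 and 9554906, 11922442 and 6891798 in control replicates 1 to 3. Dlx5 itself had 7, 15 and 17 counts in the Dlx5-/- libraries, against 242, 193 and 113 in the controls, so all 6 libraries matched their labels (log2 fold change -3.93, SE 0.32; adjusted p = 0.0205, edgeR quasi-likelihood). Dlx5-/- replicate 3 stood apart: its mean correlation with the other libraries was 0.959, against 0.970 to 0.976 for the others, and 6 markers of mature brain, among them Gfap and Gad1, summed to 190.1 CPM there (read counts scaled to a common library size), against 4.02 to 13.1 CPM in the other 5 libraries. Markers of the labelled tissue were present in every library, with 7 palatal mesenchyme genes at 332 to 399 CPM in Dlx5-/- and 303 to 373 CPM in control libraries, and 13 myogenic genes at 294 to 415 CPM in Dlx5-/- and 272 to 308 CPM in control libraries. Osteoblast and oral epithelium sums were highest in control replicate 3. There 5 osteoblast genes summed to 699 CPM, against 319 and 230 CPM in the other controls and 35.0 to 356 CPM in Dlx5-/-. The 7 oral epithelium genes summed to 297 CPM there, against 199.7 and 201 CPM in the other controls and 181 to 198 CPM in Dlx5-/-. Levels below are CPM scaled with TMM factors, which correct for differences in library composition.

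Chrna1, the receptor's alpha subunit gene, had an edgeR fitted fold of 2.58 in Dlx5-/- palates over controls and Rapsn, the rapsyn gene, of 1.95, while Agrn and Lrp4 were close to the controls; none of these differences passed the test over the whole table. Of the 10 genes, 9 averaged at least 1 CPM over the 6 libraries and were tested; each of these averaged at least 1.70 CPM in both groups, so none entered through the Dlx5-/- libraries alone. With edgeR's quasi-likelihood test, adjusted over 16218 genes at 0.05, 0 of the 9 were called, against 0.00617% of all genes (Dlx5 only). At an unadjusted p under 0.05, 2 of the 9 were higher (Chrna1 and Rapsn) and 0 lower, against 5.6% of all genes higher and 7.23% lower. The same 2 genes had groups that did not overlap, both higher in Dlx5-/-, against 9.48% of all genes in that direction; 0 members were lower without overlap, against 9.71%. Estimates were above 0 for 7 of the 9, against 52.5% of all genes, and the median log2 fold change was 0.80, against 0.01 over all genes tested. DESeq2, run as an alternative, called Chrna1 as higher (0.858% of genes with an adjusted p), and limma-trend called 0 of the 9 (0.598% of genes in either direction).

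**Figure D1:**
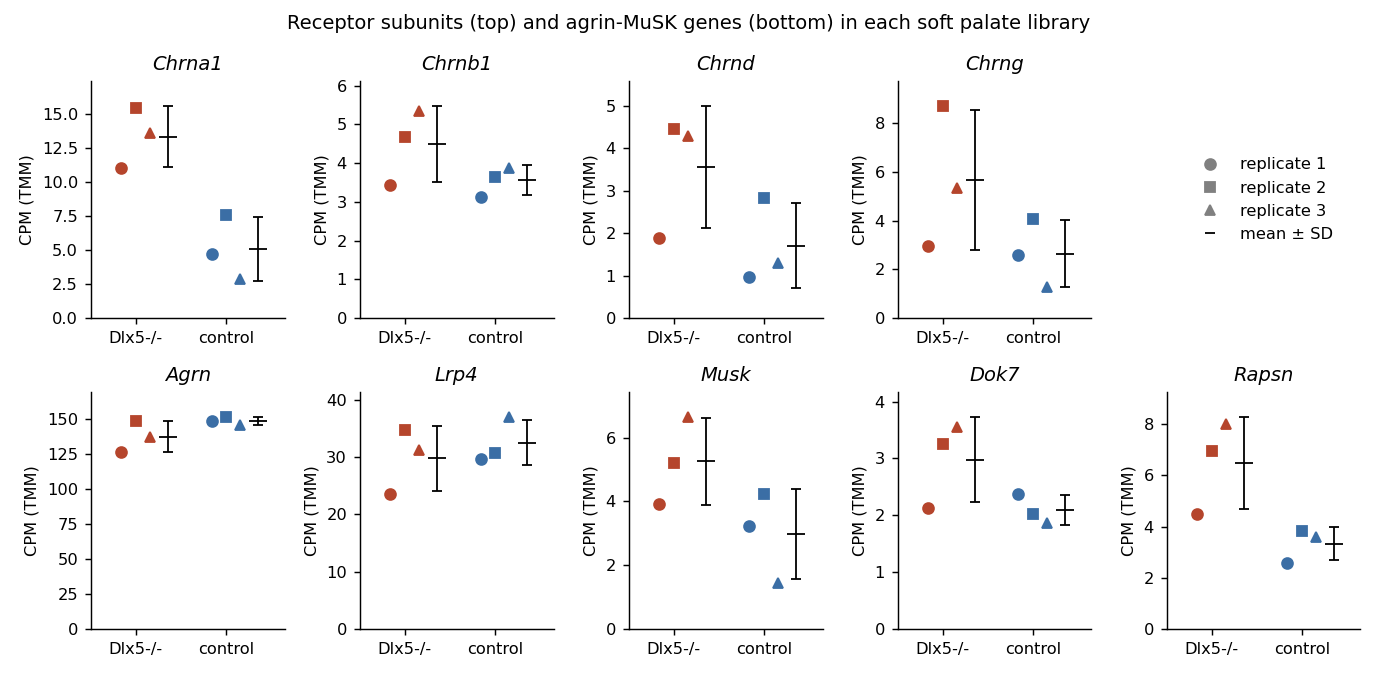
CPM (TMM-scaled, linear axis from 0) of the 9 members tested in each library, with the 4 receptor subunits above and the 5 agrin-MuSK genes below. Symbols are libraries and bars are mean ± SD of 3; for Chrna1 and Rapsn every Dlx5-/- library lies above every control library, and for the other 7 genes the groups overlap.

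Chrna1 encodes the alpha subunit, which carries the acetylcholine binding site, and its gene spans 73563215 to 73580338 of chromosome 2 (GRCm38, minus strand). It measured 11.0, 15.4 and 13.6 CPM in the Dlx5-/- libraries (93, 142 and 180 counts) and 4.75, 7.55 and 2.87 CPM in the controls (44, 93 and 20 counts). All 3 Dlx5-/- libraries were above all 3 controls, and the lowest control library was also the one with the fewest reads. The means were 13.3 ± 2.22 and 5.06 ± 2.35 CPM (SD, n = 3 each). The fitted log2 fold change was 1.37 (SE 0.32; 95% confidence interval 0.63 to 2.10; adjusted p = 0.121, edgeR), rank 341 of 16218 genes by p-value. DESeq2 gave the same size of difference (1.37) with an adjusted p = 0.00391, and edgeR without a filter on low counts gave 1.37 with an adjusted p = 0.00308 (0.817% of genes were called as higher there), so the call depended on the method.

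Chrng encodes the gamma subunit of the fetal receptor, on chromosome 1 from 87204657 to 87212694 (plus strand). It measured 2.96, 8.69 and 5.36 CPM in Dlx5-/- libraries and 2.59, 4.06 and 1.29 CPM in controls. Dlx5-/- replicates 2 and 3 were above all controls, while Dlx5-/- replicate 1 lay between control replicates 1 and 2, so the groups overlapped. The log2 fold change was 1.05 (SE 0.48; 95% confidence interval -0.05 to 2.16; adjusted p = 0.414, edgeR). Without Dlx5-/- replicate 2, its highest library, it was 0.61 (adjusted p = 0.650, edgeR), and leaving out control replicate 2 gave 1.52 (adjusted p = 0.485, edgeR).

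Chrnd encodes the delta subunit and is the neighbour of Chrng, 4586 bases upstream of it on the same strand (chromosome 1 from 87190607 to 87200070). It measured 1.89, 4.46 and 4.30 CPM in Dlx5-/- libraries and 0.972, 2.84 and 1.29 CPM in controls. As with Chrng, Dlx5-/- replicate 1 fell among the controls and the other Dlx5-/- libraries lay above them. Its log2 fold change was 1.03 (SE 0.50; 95% confidence interval -0.12 to 2.17; adjusted p = 0.443, edgeR), and 1.66 without control replicate 2 (adjusted p = 0.425, edgeR). Counts were small: control replicates 1 and 3 had 9 each, with an exact 95% Poisson interval of 4.12 to 17.1 that covers counting error only.

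Chrnb1 encodes the beta subunit, on chromosome 11 from 69784036 to 69795943 (minus strand), and had the smallest estimate among the 4 subunits tested. It measured 3.43, 4.67 and 5.36 CPM in Dlx5-/- libraries and 3.13, 3.65 and 3.88 CPM in controls. The groups overlapped, with Dlx5-/- replicate 1 inside the control range. Its log2 fold change was 0.35 (SE 0.27; 95% confidence interval -0.27 to 0.96; adjusted p = 0.649, edgeR).

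The balance between subunits was read within each library as a ratio of counts to Chrnb1, which cancels library depth; this ratio was chosen after the values had been seen. Chrna1 had 3.21, 3.30 and 2.54 counts for each Chrnb1 count in Dlx5-/- libraries and 1.52, 2.07 and 0.741 in controls. The groups did not overlap (p = 0.1, exact two-sided permutation test on log2 ratios, the smallest p that 3 against 3 allows). The ratio of Chrng to Chrnb1 was 0.862, 1.86 and 1.00 in Dlx5-/- libraries and 0.828, 1.11 and 0.333 in controls (exact p = 0.4). The ratio of Chrnd to Chrnb1 was 0.552, 0.953 and 0.803 in Dlx5-/- libraries and 0.310, 0.778 and 0.333 in controls (exact p = 0.2). Of these 3 ratios, those of gamma and delta overlapped between groups and that of alpha did not.

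Chrne, which encodes the epsilon subunit that takes the place of gamma in adult muscle, had 0 counts in all 6 libraries (chromosome 11 from 70614883 to 70619216, minus strand). Chrng had 176 counts over the Dlx5-/- libraries and 83 over the controls. The floor was the 3 counts that a count of 0 still allows, a one-sided limit. The limits below take the Chrng counts as observed, so they cover the counting error of Chrne only. On counts pooled over each group, Chrng as observed was then at least 23.8-fold above Chrne per kilobase of exon in Dlx5-/- and 11.2-fold in controls. Library by library, the limits were 3.38, 10.8 and 9.61 in Dlx5-/- replicates 1 to 3. In control replicates 1 to 3 they were 3.25, 6.77 and 1.22. The last rests on 9 Chrng counts (exact 95% Poisson interval 4.12 to 17.1), so it is not a firm limit. With the same floor, in an alternative added after seeing the data, the pooled lower limits were 13.0 without Dlx5-/- replicate 2 and 14.2 without Dlx5-/- replicate 3. The pooled limit was 4.47 without control replicate 2. The gamma share of pooled gamma and epsilon counts was 100% in both groups, with exact (Clopper-Pearson) lower bounds of 97.9% in Dlx5-/- and 95.7% in controls. The lowest bound of a single library was 66.4%, in control replicate 3. Reads of the gamma gene and none of the epsilon gene were thus found in both genotypes.

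On the agrin-MuSK side, the genes split into those close to the controls (Agrn and Lrp4) and those with estimates above 0 (Musk, Dok7 and Rapsn). Agrn encodes agrin, a basement membrane proteoglycan that many tissues make besides motor nerve; the nerve form differs by small exons that gene counts cannot tell apart. It measured 126, 149 and 137 CPM in Dlx5-/- libraries and 149, 152 and 146 CPM in controls (chromosome 4 from 156165290 to 156197488, minus strand). The log2 fold change was -0.11 (SE 0.08; 95% confidence interval -0.31 to 0.08; adjusted p = 0.624, edgeR), the narrowest interval among the members. The summed level of 8 neuron markers was 1543 to 2039 CPM in Dlx5-/- and 2969 to 3796 CPM in control libraries. Of the 8, edgeR called 0, limma-trend 3 and DESeq2 6 as lower. Over all genes, in either direction, limma-trend called 0.598% and DESeq2 called 506 of the 13988 with an adjusted p. For 2 other tissues that make agrin, 7 oral epithelium genes summed to 181 to 198 CPM in Dlx5-/- and 199.7 to 297 CPM in control libraries, and 4 endothelium genes to 247 to 294 CPM in Dlx5-/- and 308 to 364 CPM in control libraries. Of these, edgeR and limma-trend called 0 genes and DESeq2 called 2 epithelium genes and 1 endothelium gene as lower. The median log2 fold changes were -0.08 and -0.20, and Trp63 in epithelium (0.36) and Tek in endothelium (0.04) had estimates above 0. The part of these tissues in the Agrn level was not tested.

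Lrp4, the agrin receptor, which is also known from bone, kidney and epithelial appendages, measured 23.6, 34.7 and 31.2 CPM in Dlx5-/- libraries and 29.7, 30.8 and 36.9 CPM in controls (chromosome 2 from 91457511 to 91513779, plus strand). The groups overlapped throughout. Its log2 fold change was -0.12 (SE 0.15; 95% confidence interval -0.47 to 0.24; adjusted p = 0.818, edgeR). Without Dlx5-/- replicate 1, its lowest library, the estimate was 0.02, so no direction could be given.

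Musk, the muscle-restricted kinase at the centre of the pathway, measured 3.91, 5.22 and 6.64 CPM in Dlx5-/- libraries and 3.24, 4.22 and 1.44 CPM in controls (chromosome 4 from 58285960 to 58374303, plus strand). The groups overlapped because Dlx5-/- replicate 1 lay below control replicate 2. The log2 fold change was 0.80 (SE 0.39; 95% confidence interval -0.10 to 1.69; adjusted p = 0.446, edgeR), and without control replicate 3, its lowest library, it was 0.49 (adjusted p = 0.707, edgeR).

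Dok7, which encodes the cytoplasmic adaptor that MuSK needs for its activity, measured 2.13, 3.26 and 3.55 CPM in Dlx5-/- libraries and 2.38, 2.03 and 1.87 CPM in controls (chromosome 5 from 35056766 to 35087839, plus strand). Dlx5-/- replicate 1 again fell among the controls. Its log2 fold change was 0.51 (SE 0.33; 95% confidence interval -0.25 to 1.28; adjusted p = 0.577, edgeR).

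Rapsn encodes rapsyn, the scaffold that binds receptors from inside the cell, and lies on chromosome 2 from 91035620 to 91045729 (plus strand). It measured 4.50, 6.96 and 8.00 CPM in Dlx5-/- libraries and 2.59, 3.82 and 3.59 CPM in controls. All Dlx5-/- libraries were above all controls. The means were 6.48 ± 1.80 and 3.33 ± 0.652 CPM (SD, n = 3 each), and the log2 fold change was 0.96 (SE 0.29; 95% confidence interval 0.29 to 1.64; adjusted p = 0.211, edgeR). Rapsn shares 4 exonic bases with Gm13778 on the opposite strand, the only exonic overlap among the members, and the use of strand in counting is not given in the sources used here.

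**Figure D2:**
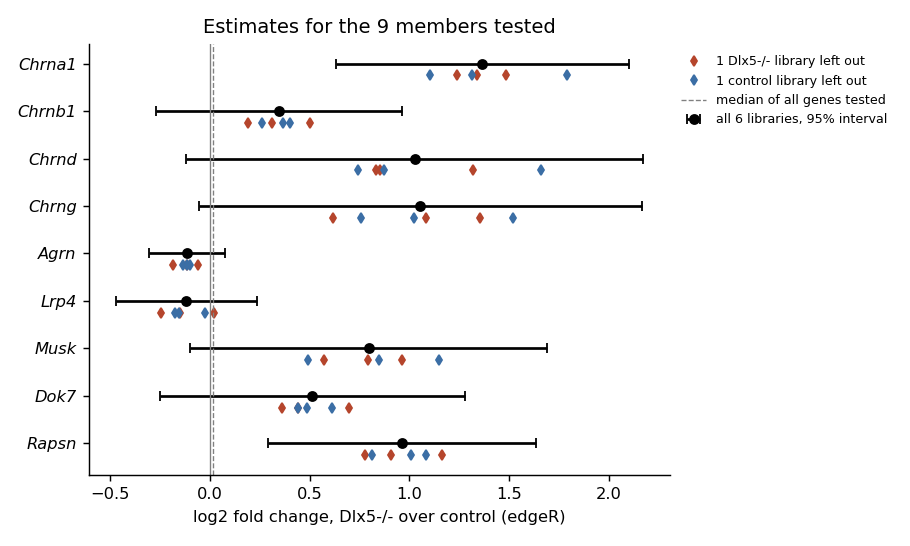
Log2 fold change of each tested member, Dlx5-/- over control, with its 95% confidence interval (black) and the estimates with 1 Dlx5-/- library (red) or 1 control library (blue) left out. The intervals of Chrna1 (0.63 to 2.10) and Rapsn (0.29 to 1.64) lie above 0, those of the other 7 include 0, and only Lrp4 has estimates on both sides of 0 when a library is left out.

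Leaving out the library that stood apart did not bring a member past the threshold. Without Dlx5-/- replicate 3, edgeR called 164 genes (1.01% of those tested) and 0 of the 9 members. Chrna1 then had a log2 fold change of 1.34 (adjusted p = 0.116, edgeR), Rapsn of 0.78 (adjusted p = 0.331, edgeR), Musk of 0.57 (adjusted p = 0.629, edgeR) and Chrnb1 of 0.19 (adjusted p = 0.852, edgeR).

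Levels were set against each other per kilobase of merged exons, from GENCODE M21. In Dlx5-/- palates Agrn was far above the rest at 14.8 ± 1.21 CPM per kb (SD, n = 3). Rapsn (3.60 ± 0.996), Chrna1 (3.04 ± 0.506) and Lrp4 (2.84 ± 0.540) followed, with ranges that overlapped. Below a gap came Chrnb1 at 1.77, Musk at 1.39, Chrng at 1.36, Chrnd at 1.08 and Dok7 at 0.697 CPM per kb, where each neighbour in this order overlapped the next. In controls Agrn was at 16.0 ± 0.305 and Lrp4 at 3.09 ± 0.373 CPM per kb, without overlap with the genes below. Rapsn (1.85), Chrnb1 (1.40), Chrna1 (1.15), Musk (0.785), Chrng (0.636), Chrnd (0.518) and Dok7 (0.489 CPM per kb) then formed a series in which neighbours overlapped. Chrna1 was thus above Chrnb1 in all 3 Dlx5-/- libraries and overlapped it in controls. With the length of the principal coding transcript instead, an alternative added after seeing the data, Chrng stood at 2.04 and Musk at 1.57 CPM per kb in Dlx5-/- palates, and Lrp4 at 3.76 and Chrna1 at 3.04, so both of these pairs changed places with the gene model. The gap in Dlx5-/- palates also closed, as Chrng reached 3.13 in Dlx5-/- replicate 2, above Chrna1 at 2.51 in Dlx5-/- replicate 1.

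**Figure D3:**
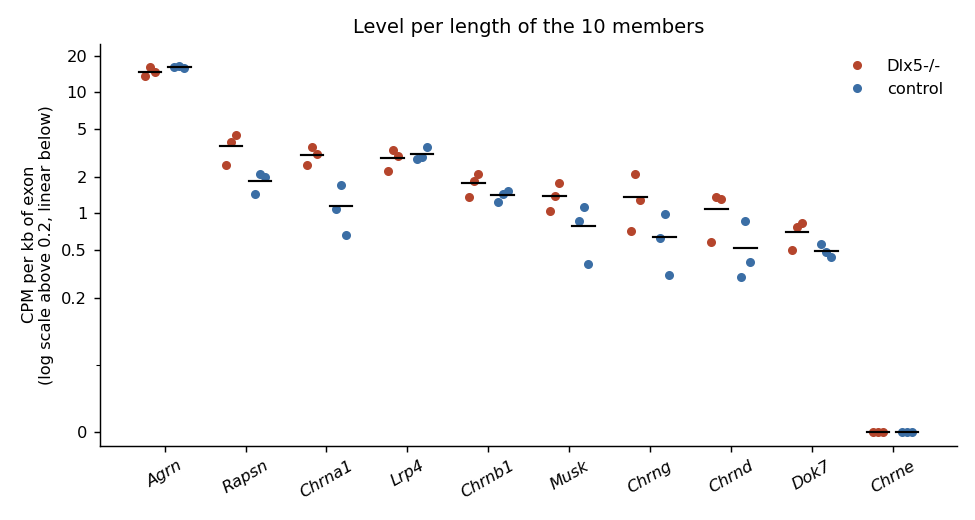
CPM per kilobase of merged exons of the 10 members in each library (points; lines are means of 3), ordered by the Dlx5-/- mean; the axis is logarithmic above 0.2 and linear below. Agrn stands highest in both groups, Chrne is at 0 in all 6 libraries, and Chrna1 and Rapsn show no overlap between Dlx5-/- and control.

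The receptor subunit genes, Musk, Dok7 and Rapsn are known mainly from muscle cells, and the amount of muscle RNA differed between libraries. In bulk tissue, more muscle cells and more RNA per muscle cell cannot be told apart. A list of 21 contractile genes summed to 1892, 5188 and 3121 CPM in Dlx5-/- libraries and 1869, 2612 and 1507 CPM in controls. Dlx5-/- replicate 1, the library that fell among the controls for Chrnb1, Chrnd, Chrng, Musk and Dok7, was also inside the control range here. Of the 21 contractile genes, 0 were called by edgeR and 17 were higher at an unadjusted p under 0.05, against 5.6% of all genes. DESeq2 called 4 as higher, against 0.858% of genes with an adjusted p. The median log2 fold change of the 21 was 1.02. Among them Myl1, a myosin light chain, had a log2 fold change of 1.09 (adjusted p = 0.0746, edgeR).

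Relative to this contractile sum, Chrna1 had log2 ratios of -7.42, -8.39 and -7.84 in Dlx5-/- libraries and -8.62, -8.43 and -9.03 in controls. The Dlx5-/- libraries were above the controls, with Dlx5-/- replicate 2 close to control replicate 2, and the mean difference of 0.81 reached the smallest p the design allows (p = 0.1, exact two-sided permutation test, 1 of 9 ratios tested, unadjusted). Against the geometric mean of the same list the difference was 0.61 and the groups overlapped (exact p = 0.2), and against 13 myogenic genes it was 1.19 without overlap (exact p = 0.1). The Chrng ratio was -9.32, -9.22 and -9.19 in Dlx5-/- libraries and -9.49, -9.33 and -10.2 in controls (difference 0.43, no overlap, exact p = 0.1). The lowest Dlx5-/- ratio, -9.320, was barely above the highest control ratio, -9.330. Counting error was wide, as Dlx5-/- replicate 1 had 25 Chrng counts (exact 95% Poisson interval 16.2 to 36.9) and control replicate 3 had 9. Without control replicate 3 the difference was 0.17. Against the geometric mean of the contractile list the Chrng difference was 0.23 (exact p = 0.7) and against the myogenic genes it was 0.80 (exact p = 0.2), with overlap in both. Relative to the contractile sum, Chrnd differed by 0.43 (exact p = 0.4), Rapsn by 0.25 (exact p = 0.8), Musk by 0.24 (exact p = 0.5), Dok7 by -0.20 (exact p = 0.5) and Chrnb1 by -0.37 (exact p = 0.6), with overlap in each case. Agrn and Lrp4, which are not confined to muscle, had differences of -0.80 and -0.82 relative to the contractile sum, also with overlap (exact p = 0.2 each). Against the geometric mean of the contractile list both were lower without overlap, at -1.0004 for Agrn and -1.019 for Lrp4 (exact p = 0.1 each). Against the myogenic genes both were also lower without overlap, at -0.43 for Agrn and -0.44 for Lrp4 (exact p = 0.1 each). For Rapsn the difference was 0.06 with overlap against the geometric mean (exact p = 1) and 0.63 without overlap against the myogenic genes (exact p = 0.1), so whether its groups overlapped depended on the muscle genes it was set against.

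**Figure D4:**
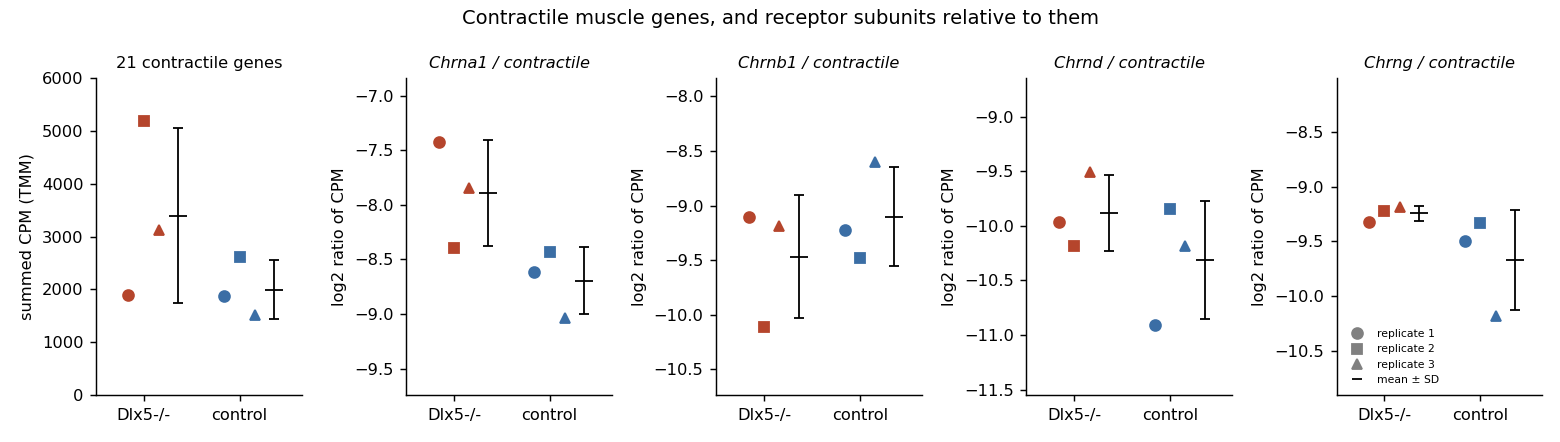
Left, summed CPM of 21 contractile genes in each library (linear axis from 0); the other panels show the log2 ratio of each receptor subunit's CPM to that sum (axes span the same range of log2 units). Bars are mean ± SD of 3; Dlx5-/- replicate 2 has the largest contractile sum at 5188 CPM, and the Chrna1 ratios of the Dlx5-/- libraries lie between -8.39 and -7.42, above the controls at -9.03 to -8.43.

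The genes whose pattern over the 6 libraries was most like that of each subunit were found by the root mean square difference of mean-centred log2(CPM + 1) among about 11582 genes of at least 5 CPM. For Chrna1 the closest was Tmem8c, the older symbol of myomaker (Mymk), which encodes the membrane protein of myoblast fusion, at 0.12 log2 units. Tmem8c measured 15.9, 25.5 and 23.1 CPM in Dlx5-/- libraries and 9.18, 11.0 and 5.18 CPM in controls, with the libraries of each group in the same order as for Chrna1. Lmod3, an actin nucleator of sarcomeres, at 0.23, and Il17b, a cytokine, at 0.24 came next. For Chrng the closest were Xirp1 (0.08), Atp2a1 (0.09), the calcium pump of fast muscle, and Tnnc1 (0.09), a troponin. For Chrnd they were Trim55 (0.11), Smyd1 (0.18) and Tnnt1 (0.18), all known from striated muscle. For Chrnb1 they were Klf12 (0.06), Celf2 (0.06) and Ccnj (0.06), none of them a muscle-specific gene. By the same measure Chrna1 and Chrng differed from each other by 0.33. The profiles were not scaled for how much a gene varied, so distances of different subunits cannot be ranked against each other. The limit of 5 CPM also left out Chrnb1, Chrnd, Chrng, Musk, Dok7 and Rapsn as candidates. These distances describe 6 points and were not tested.

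In 4 lists of other genes of the synapse and the receptor's assembly, edgeR, DESeq2 and limma-trend called 0 genes. Among 6 tested neuronal acetylcholine receptor subunits, 1 was higher and 1 lower at an unadjusted p under 0.05. The shares of all genes at that threshold, 5.6% higher and 7.23% lower, also stand beside the lists that follow. Chrna4 measured 12.7, 8.91 and 14.7 CPM in Dlx5-/- libraries and 4.86, 7.06 and 9.06 CPM in controls (log2 fold change 0.80; adjusted p = 0.268, edgeR). Chrnb2 was lower without overlap, at 16.5 ± 1.88 CPM in Dlx5-/- and 23.9 ± 2.30 CPM in controls (SD, n = 3 each; log2 fold change -0.53; adjusted p = 0.133, edgeR), in the same libraries in which the summed neuron markers were lower. A further 5 neuronal subunits were under the filter.

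Of 18 tested genes of the synaptic basal lamina and the dystrophin complex, 0 were called by edgeR, DESeq2 or limma-trend, 0 were higher and 1 lower at an unadjusted p under 0.05, and the median log2 fold change was -0.15. The lower one was Dtna, which encodes alpha-dystrobrevin (log2 fold change -0.45; adjusted p = 0.289, edgeR). Cav3, the muscle caveolin, measured 3.91, 11.1 and 6.11 CPM in Dlx5-/- libraries and 3.24, 4.46 and 3.88 CPM in controls (log2 fold change 0.86; adjusted p = 0.395, edgeR). Colq, the collagen tail of synaptic acetylcholinesterase, was under the filter with 45 counts over the Dlx5-/- libraries and 16 over the controls.

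Of 17 tested genes of MuSK and neuregulin signalling, the 3 tools likewise called 0, with 1 higher and 1 lower at an unadjusted p under 0.05 and a median of 0.12. The ETS factor gene Etv5, whose product acts in subsynaptic nuclei, measured 57.4 ± 6.26 CPM in Dlx5-/- and 47.4 ± 4.96 CPM in controls (SD, n = 3 each; log2 fold change 0.28; adjusted p = 0.344, edgeR). Nrg1, the neuregulin ligand, had a log2 fold change of -0.54 (adjusted p = 0.358, edgeR) and its receptor gene Erbb3 of 0.31 (adjusted p = 0.399, edgeR). Dvl1, a Wnt pathway protein that binds MuSK, was higher without overlap at 0.32 (adjusted p = 0.412, edgeR). Of 10 genes for receptor folding and glycosylation, 0 were called by any of the 3 tools, 0 passed an unadjusted p under 0.05, and the median was 0.06.

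The nerve side of the synapse could be read only weakly. The list of 9 markers held the genes for acetylcholine synthesis, choline uptake and vesicle packaging (Chat, Slc5a7 and Slc18a3), which define cholinergic terminals. It also held the motor neuron gene Mnx1 and the broader neuronal genes Isl1, Prph, Snap25, Syt2 and Vamp1. It summed to 334 to 413 CPM in Dlx5-/- and 651 to 791 CPM in control libraries. Prph was the largest part of this sum in every library except Dlx5-/- replicate 3. Chat and Mnx1 were near 0: Chat, the enzyme of acetylcholine synthesis, had 2, 0 and 11 counts in Dlx5-/- libraries and 0, 1 and 1 in controls, and Mnx1, a motor neuron factor, had 0, 0 and 0 in Dlx5-/- libraries and 0, 2 and 3 in controls. Slc18a3, the vesicular acetylcholine transporter, had 3, 11 and 20 counts in Dlx5-/- libraries and 5, 18 and 14 in controls. Prph, a peripheral neuron filament shared with sensory neurons, measured 284, 269 and 101 CPM in Dlx5-/- libraries and 482, 586 and 519 CPM in controls (log2 fold change -1.28; adjusted p = 0.143, edgeR). Isl1 had a log2 fold change of -0.71 (adjusted p = 0.0939, edgeR) and Syt2 of -0.85 (adjusted p = 0.0952, edgeR). Of the 7 tested markers, these and Prph, 3 in all, were lower without overlap, against 9.71% of all genes. None was higher without overlap, against 9.48%. DESeq2 called 2 of the 7 tested markers as lower, and edgeR 0. Over all genes DESeq2 called 506 of the 13988 with an adjusted p, in either direction. Slc5a7, the choline transporter, had a log2 fold change of -0.67 (adjusted p = 0.414, edgeR). Of the 7 tested, 5 had estimates below 0 and 2 above, Snap25 and Vamp1, both genes of vesicle fusion. Snap25 had 320, 239 and 2071 counts in Dlx5-/- libraries and 476, 782 and 396 in controls, and Vamp1 had 42, 41 and 164 counts in Dlx5-/- libraries and 52, 71 and 51 in controls. Both were highest in Dlx5-/- replicate 3, the library with the mature brain markers, and below every control in CPM in the other Dlx5-/- libraries.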

How the data were processed

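The deposited table gives estimated counts per gene, made by the authors with tools named in the submitters' processing notes as STAR 2.4.1d and Partek on mm10; the sources used here give no annotation, counting settings or strand use. The file calls itself normalized, but its columns sum to different totals, and 64.5% of values above 0.5 are whole within 0.001. The table has 1 more column, which fits no labelled sample and was left out. Columns were assigned by names in the labels. Libraries were polyadenylated RNA (TruSeq), per the labels' protocols. Depth limits low genes: 9 counts carry a wide interval.

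Counts were rounded, filtered at a mean of 1 CPM (16218 genes) and tested with edgeR 4.0.16 (quasi-likelihood, TMM, R 4.3.3, Benjamini-Hochberg at 0.05), with SE from the F statistic. Alternatives were limma-trend 3.58.1 on log2(CPM + 1), DESeq2 1.42.0, other filters and scalings, a replicate block and each library left out. The method was run on simulated data in which only genes of at least 5 CPM were changed, so it does not speak for members below that level. Members, lists and rules were chosen with earlier results of these data known. Named are all members, Dlx5, up to 4 genes of smallest p per list and the 3 genes most like each subunit, predicted genes left out; other genes were chosen after their values were seen. Coordinates and lengths are GENCODE M21 (GRCm38, the assembly also called mm10); promoters are RefSeq. Intervals on counts cover counting error only. Figures used matplotlib 3.10.9.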

Additional observations from a re-analysis of the deposited data

How the results depend on the processing

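The number of genes called over the table changed with the method. Against 1 gene in the test reported, edgeR called 679 with no filter, 74 with a filter of 5 CPM, 41 with library totals in place of TMM and 1 with median-of-ratios factors; DESeq2 called 506 and limma-trend 97. With 1 library left out the count ran from 0 to 164. Members called were 1 (Chrna1) with no filter and 1 (Chrna1) with DESeq2, and 0 under the other 11 alternatives, where the filter of 5 CPM kept 3 members. Over its alternatives the adjusted p of Chrna1 ran from 0.00308 to 0.247 and its log2 fold change from 1.10 to 1.79. Genes of the pathway lists were called 0 times under every alternative run. The cause of these differences was not tested.

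Estimates of Chrna1, Chrnb1, Chrnd, Chrng, Musk, Dok7 and Rapsn stayed above 0 and that of Agrn below 0 under every alternative run. Lrp4 changed sign without Dlx5-/- replicate 1, in a range of -0.25 to 0.022 over the libraries left out. Dlx5 lost its call without Dlx5-/- replicate 1 (adjusted p = 0.0949, edgeR), Dlx5-/- replicate 2 (0.0631) or control replicate 3 (0.107), with a log2 fold change between -4.15 and -3.65 over the libraries left out. Of the 9 ratios to contractile genes, 5 had a mean difference above 0, 7 against the myogenic sum (Chrnb1 at 0.0088) and 4 to 6 with 1 library left out.

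Replicate numbers are shared between groups, but same-numbered libraries did not deviate together (correlations -0.01, -0.01 and 0.02), and Dlx5-/- replicate 1 correlated best with control replicate 3. With the replicate block edgeR called 0 genes; Dlx5 had a log2 fold change of -3.88 (adjusted p = 0.0620), Chrna1 of 1.44 (adjusted p = 0.113), and 0 members were called. At 9 to 57 counts per library for Chrnd, counting error alone limits what can be seen.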
